A study of Homo sapiens with 18 samples.

Results

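The regions described here are the peaks and sites of the DNA topoisomerases TOP2A and TOP2B that lie in 7 tandem arrays of the human genome. They were chosen by position alone: every MACS peak and every SISSRs site of the 12 immunoprecipitated libraries whose midpoint lay in one of 7 fixed hg19 intervals. This gave 3824 regions, 1412 MACS peaks and 2412 SISSRs sites, of 2896041 in all (1413022 peaks and 1483019 sites). The intervals are the REXO1L array (chr8:86550000-86870000), the beta-defensin or DEFB cluster (chr8:6900000-8100000), the USP17L array (chr4:9200000-9400000), the D4Z4 arrays of chromosomes 4 (chr4:190900000-191044276) and 10 (chr10:135400000-135524747), the CT47 array (chrX:120000000-120130000) and the GAGE array (chrX:49150000-49400000). Each was set against 1 Mb on either side, called its flanks, which held 6132 peaks and 6847 sites. The lists ended at the end of both D4Z4 intervals, so these had a flank on 1 side only. The array names are those given with the intervals. Whether the intervals hold these genes could not be checked, because no hg19 gene annotation was used here.

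Chromatin came from KG-1 cells, an established human myeloid leukaemia line, and was precipitated with an antibody to TOP2A or to TOP2B. In the etoposide experiment the cells were exposed for 1 h to 100 µM etoposide or to its methanol vehicle, with 2 libraries for each antibody and treatment. In the mitoxantrone experiment they were exposed for 1 h to 0.5 µM mitoxantrone or were left untreated, with 1 library for each antibody and treatment. Per the labels, DNA of several precipitations with the same antibody was pooled before sequencing, and nothing says that the replicates were separate cultures, so p-values measure only the spread between these libraries, which may be technical. The 6 input samples were not analysed here. MACS lists held 36528 to 297394 peaks in the etoposide experiment and 702 to 109739 in the mitoxantrone experiment, whose peaks were also wider (median 462 to 1126 bp, against 98 to 128 bp). Read depth is unknown.

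Type II topoisomerases cut both strands of a DNA duplex, pass another duplex through the gap and reseal it. TOP2A is abundant in dividing cells, while TOP2B is also present in cells that no longer divide. Etoposide and mitoxantrone hold the enzymes on the cut DNA. Tandem arrays consist of near-identical copies in a row, and their copy number differs between people and between cell lines. A short read from such a copy can often be placed equally well in several others. The sources used here do not say how the authors treated reads with several placements.

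GAGE genes encode cancer/testis antigens, proteins made in the testis and in some tumours. Their promoters are printed because they show how alike the copies are and how far apart they lie. The windows run from 250 bases before to 50 after each gene's start, and come from RefSeq on GRCh38.p14, not on hg19, so no peak was assigned to a gene. All 12 GAGE symbols of chromosome X had an entry. Of these, 8 shared 1 identical sequence of 300 bases, given as GAGE12C (chrX:49531927-49532226, plus strand). GAGE13 (chrX:49331332-49331631, plus strand) differed from it by 1 substitution, T252C, counted from the 5′ end of the window. GAGE10 (chrX:49303396-49303695, plus strand) was the most different, with 90.6% identity over the aligned bases. Capitals mark bases with no equal partner in GAGE12C.
GAGE12C: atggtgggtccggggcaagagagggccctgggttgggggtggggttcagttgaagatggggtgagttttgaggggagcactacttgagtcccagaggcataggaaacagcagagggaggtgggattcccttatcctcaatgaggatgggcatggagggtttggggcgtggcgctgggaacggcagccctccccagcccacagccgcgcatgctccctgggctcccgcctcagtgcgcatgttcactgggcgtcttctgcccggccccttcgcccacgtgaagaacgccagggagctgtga
GAGE13: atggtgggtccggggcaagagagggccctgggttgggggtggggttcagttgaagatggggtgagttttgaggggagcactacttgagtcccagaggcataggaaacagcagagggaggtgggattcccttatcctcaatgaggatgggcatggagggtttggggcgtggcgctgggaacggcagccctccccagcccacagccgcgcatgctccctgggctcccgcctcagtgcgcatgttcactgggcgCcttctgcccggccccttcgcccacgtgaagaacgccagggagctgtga
GAGE10: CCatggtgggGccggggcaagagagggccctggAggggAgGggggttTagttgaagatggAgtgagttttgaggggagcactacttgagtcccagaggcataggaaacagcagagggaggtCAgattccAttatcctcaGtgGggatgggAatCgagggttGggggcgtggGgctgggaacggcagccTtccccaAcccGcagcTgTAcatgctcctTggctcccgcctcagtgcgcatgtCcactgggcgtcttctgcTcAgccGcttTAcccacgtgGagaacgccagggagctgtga
The reads were 50 bp long. Of the 251 stretches of 50 bases in a window, 202 of GAGE13 (80.5%) and 11 of GAGE10 (4.38%) were also in GAGE12C. Every such stretch was shared with the promoter of another gene in 10 of 13 GAGE entries (76.9%), against 587 of all 35116 promoter windows (1.67%).

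Densities in arrays and flanks depended on the peak caller. On average MACS peaks were denser in the array than in the flanks for the D4Z4 array of chromosome 4 (1.75-fold, log2 ratio 0.81 ± 0.74, SD, n = 8 libraries of the etoposide experiment), the DEFB cluster (1.30-fold, 0.38 ± 0.46) and, least, the D4Z4 array of chromosome 10 (1.11-fold, 0.15 ± 0.57). They were sparser on average in the CT47 (0.424-fold, log2 ratio -1.24 ± 1.08), GAGE (0.659-fold, -0.60 ± 1.27), REXO1L (0.752-fold, -0.41 ± 1.38) and USP17L (0.954-fold, -0.07 ± 1.22) arrays. None of these 7 ratios passed a two-sided exact permutation test that flips the sign of each library's ratio (Benjamini-Hochberg adjusted p from 0.109 to 0.891, n = 8). Before adjustment 3 of 7 were under 0.05, the D4Z4 array of chromosome 4 and CT47 (exact p = 0.0312 each) and DEFB (exact p = 0.0469). With SISSRs sites in place of MACS peaks, 5 arrays were denser than their flanks and passed the same test: REXO1L (2.90-fold, higher in 8 of 8 libraries), USP17L (2.34-fold, 7 of 8), the D4Z4 arrays of chromosomes 4 (1.99-fold, 7 of 8) and 10 (1.53-fold, 8 of 8) and DEFB (1.36-fold, 7 of 8). Their adjusted exact p was 0.0328 for USP17L and 0.0273 for the other 4. CT47 (log2 ratio -1.28, adjusted exact p = 0.0547) and GAGE (-0.60, adjusted exact p = 0.281) did not pass. In REXO1L and USP17L the change of caller turned the sign of the mean ratio. With MACS peaks the libraries were divided there, the array being higher in 3 of 8 (REXO1L) and 4 of 8 (USP17L).

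**Figure D1:**
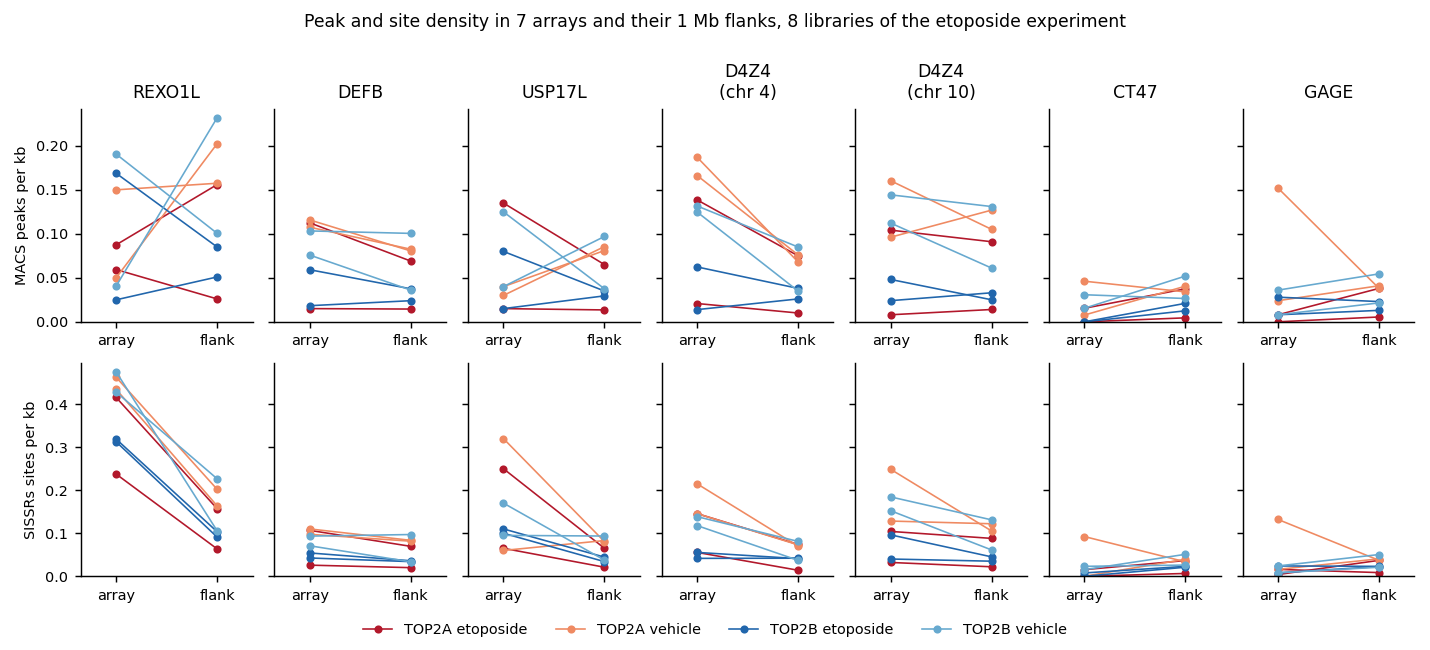
MACS peaks per kb (upper row) and SISSRs sites per kb (lower row) in each array and in its flanks. Each line joins the values of 1 of the 8 libraries of the etoposide experiment, coloured by antibody and treatment, and in REXO1L all 8 lines of sites run down to the flank while those of peaks cross.

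The REXO1L array is a run of copies related to REXO1, an RNA exonuclease gene, and RefSeq lists 11 REXO1L pseudogenes on chromosome 8 of GRCh38.p14. It held the densest sites of all 7 arrays, 0.386 ± 0.0851 sites per kb (SD, n = 8), above each of the 11402 windows of 250 kb outside the arrays. TOP2A sites numbered 76 and 133 with etoposide (replicates 1 and 2) and 139 and 148 with the vehicle. TOP2B sites numbered 102 and 100 with etoposide and 152 and 137 with the vehicle. Per kb this was 0.238 to 0.475 in the array, against 0.0635 to 0.227 in the flanks, and the library ranges did not overlap. The mitoxantrone experiment did not share this. Its untreated TOP2A library had 0.0563 sites per kb in the array, against 0.181 in the flanks. Its untreated TOP2B library had 0.0469, against 0.0415, and its mitoxantrone libraries had no site in the array. MACS peaks numbered 19 and 28 (TOP2A etoposide), 48 and 16 (TOP2A vehicle), 8 and 54 (TOP2B etoposide) and 61 and 13 (TOP2B vehicle). These counts were lowest in the TOP2B library of etoposide replicate 1 and spread more within groups than between them. MACS peak density averaged 0.0965 per kb, above that of 95.6% of the same windows, whose mean was 0.0556 per kb. The REXO1L flanks were denser still, at 0.126 peaks per kb. No library had a peak or a site in 1 stretch of 150 kb, chr8:86576352-86726462, and MACS peaks of any library fell in 56.2% of the 10 kb windows of the array, against 100% in the flanks. Whether this stretch is a gap of the assembly was not analysed here.

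Sites in the REXO1L array carried few tags. The median tags per site were 20 and 33 in the array with TOP2A and etoposide, 104 and 32 with TOP2A and the vehicle, 23 and 17.5 with TOP2B and etoposide, and 33 and 36 with TOP2B and the vehicle. The same libraries had 24 and 79.5, 190 and 48, 38 and 38.5, and 83 and 49 tags in the flanks. Each of the 8 libraries had fewer tags per site in the array than in its flanks. The ratio was 0.563-fold (log2 -0.83 ± 0.39, SD, n = 8), with an exact permutation p and adjusted p of 0.00781, the smallest that 8 libraries can give. The fold over background that the deposited lists give for each site had medians of 2.13 to 5.22 in the array, against 27.6 to 117 in the flanks. In the array 7.84% to 52.0% of sites (median 23.8%) overlapped a MACS peak of the same library, against 40.9% to 97.1% (median 93.2%) in the flanks, lower in 8 of 8 libraries. MACS peaks of the array were also wider: 77.0% (median over libraries) exceeded the smallest width of their list, against 29.1% in the flanks, higher in 8 of 8. Their scores, the authors' own values, had a median percentile of 3.06 within their lists, against 46.2 in the flanks.

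**Figure D2:**
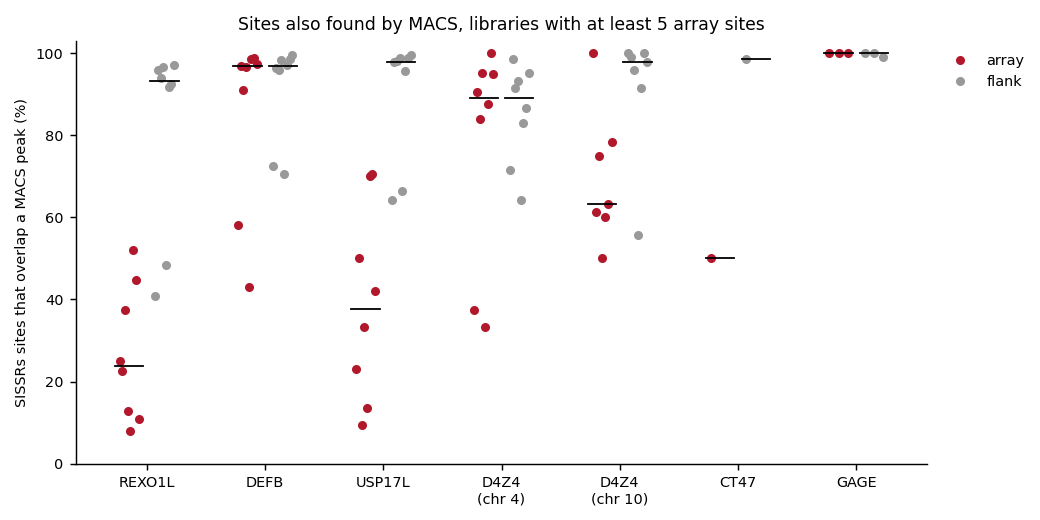
Share of SISSRs sites that overlap a MACS peak of the same library, in percent, for each array (red) and its flanks (grey). Points are the libraries of the etoposide experiment with at least 5 array sites, bars are medians, and the array points of REXO1L and USP17L lie lowest, with medians of 23.8% and 37.7%.

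Recurrence between libraries was described and not tested, since it moves with peak density. Merged over all 12 libraries the REXO1L peaks formed 149 regions, of which 52 (34.9%) were found in 2 or more, against 269 of 1792 (15.0%) in the flanks. The share of regions in 3 or more libraries was 15.4% in the array and 3.07% in the flanks. The leading region, chr8:86559779-86562370, was found in 7 of the 8 libraries of the etoposide experiment, all but the TOP2B library of etoposide replicate 1, and in none of the mitoxantrone experiment. The next, chr8:86823026-86825578, was found in 4. These regions were 2592 and 2553 bp long, and long merged regions overlap more easily. Of the SISSRs sites, 154 of 1020 (15.1%) shared their exact start with a site of another library, against 117 of 2694 (4.34%) in the flanks. This share also moves with density, and sites were denser in the array. Of the MACS peaks, 0 of 250 shared their start, against 6 of 2148 (0.279%) in the flanks.

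USP17L genes encode deubiquitinating enzymes and lie in a tandem array that RefSeq counts as 23 genes on chromosome 4 of GRCh38.p14, 19 of them protein coding. Sites numbered 13 and 50 with TOP2A and etoposide (replicates 1 and 2), 64 and 12 with TOP2A and the vehicle, 22 and 20 with TOP2B and etoposide, and 34 and 19 with TOP2B and the vehicle. The density was 0.146 ± 0.0938 sites per kb (SD, n = 8), higher than in 98.2% of the 250 kb windows, against 0.0574 ± 0.0267 in the flanks. Only the second TOP2A vehicle library had a lower site density in the array (0.06 per kb) than in the flanks (0.083 per kb). A stretch of 50.4 kb, chr4:9274359-9324752, was empty in all 12 libraries.

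Sites in the USP17L array carried the fewest tags relative to the flanks of the 4 arrays that could be tested. The median tags per site were 14 and 24 in the array with TOP2A and etoposide, 42 and 16 with TOP2A and the vehicle, 17.5 and 16 with TOP2B and etoposide, and 19.5 and 23 with TOP2B and the vehicle. Those of the flanks were 25.5 and 60, 164 and 37.5, 47 and 38.5, and 73 and 41, so all 8 libraries were lower in the array. The ratio was 0.392-fold (log2 -1.35 ± 0.42, SD, n = 8, exact permutation p and adjusted p = 0.00781). The deposited fold per site was 3.95 to 8.50 in the array, against 52.2 to 162 in the flanks. Between 9.38% and 70.6% of array sites overlapped a MACS peak, against 64.3% to 99.5% in the flanks, lower in 8 of 8 libraries. Of 78 merged MACS regions, 15 (19.2%) were found in 2 or more libraries, against 7.40% of 892 in the flanks. The leading region, chr4:9214641-9215771, was found in 4 libraries, 1 of them the untreated TOP2B library of the mitoxantrone experiment. The next, chr4:9249687-9250356, was found in 3.

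**Figure D3:**
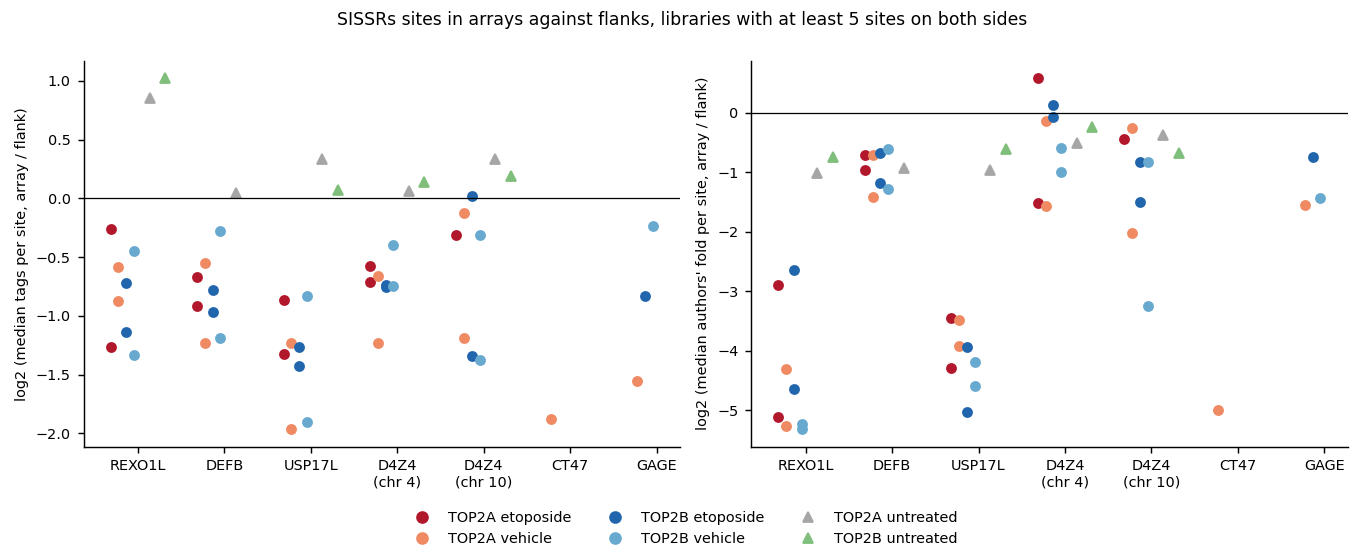
Log2 ratio of array over flank for the median tags per SISSRs site (left) and for the median of the authors' fold per site (right), 1 point per library with at least 5 sites on both sides. Circles are libraries of the etoposide experiment and triangles the untreated libraries of the mitoxantrone experiment, and in REXO1L, USP17L and D4Z4 of chromosome 4 the circles of the left panel lie below 0 and the triangles above.

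Beta-defensins are small antimicrobial peptides, and their cluster on the short arm of chromosome 8 also holds tandem FAM90A genes and further USP17L genes. RefSeq lists 30 DEFB genes on this chromosome of GRCh38.p14, 19 of them protein coding, beside 24 FAM90A and 6 USP17L genes. The cluster held the most MACS peaks of the 7 arrays, 760, in an interval of 1200 kb. TOP2A peaks numbered 18 and 135 with etoposide and 139 and 129 with the vehicle, and TOP2B peaks 22 and 71 with etoposide and 91 and 124 with the vehicle. The low counts were those of the first etoposide replicate of each antibody, whose lists were the shortest of the 8. Peak density was 0.0759 ± 0.0414 per kb, against 0.0556 ± 0.0315 in the flanks (SD, n = 8), higher in 7 of 8 libraries.

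Most sites of the DEFB cluster were found by both callers. The share of sites that overlapped a MACS peak had a median of 96.8% in both the cluster and its flanks. Tags per site were nevertheless lower in the cluster in 8 of 8 libraries, with library medians of 20 to 79, against 36.5 to 186 in the flanks. The ratio was 0.566-fold (log2 -0.82 ± 0.32, SD, n = 8, exact permutation p and adjusted p = 0.00781). The deposited fold per site was 35.5 to 70.2, against 70.6 to 160 in the flanks, lower in 8 of 8. Of 652 merged regions, 88 (13.5%) were in 2 or more libraries, against 7.62% of 892 in the flanks. The leading regions, chr8:8008599-8009325 and chr8:8019406-8020236, were each found in 4 libraries, among them the untreated TOP2A library of the mitoxantrone experiment.

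D4Z4 repeats lie near the ends of the long arms of chromosomes 4 and 10, and each copy holds a DUX4 sequence. DUX4 encodes a transcription factor of early embryos whose activity in muscle causes facioscapulohumeral dystrophy, which goes with a shortened chromosome 4 array. In that array MACS peaks numbered 3 and 20 with TOP2A and etoposide, 27 and 24 with TOP2A and the vehicle, 2 and 9 with TOP2B and etoposide, and 18 and 19 with TOP2B and the vehicle. The density was above that of the flank in all libraries of the etoposide experiment but TOP2B etoposide replicate 1 (0.0139 per kb in the array, 0.026 in the flank). Sites had 22.5 to 73 tags (library medians), against 38 to 171 in the flank, lower in 8 of 8 libraries. The ratio was 0.605-fold (log2 -0.73 ± 0.24, SD, n = 8, exact permutation p and adjusted p = 0.00781). In the deposited fold per site the difference was smaller (log2 -0.52 ± 0.78, adjusted exact p = 0.102, n = 8).

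In the chromosome 10 array peaks numbered 1 and 13 with TOP2A and etoposide, 20 and 12 with TOP2A and the vehicle, 6 and 3 with TOP2B and etoposide, and 14 and 18 with TOP2B and the vehicle. Sites were denser than in the flank in 8 of 8 libraries, 0.0321 to 0.248 per kb, against 0.022 to 0.131 per kb. Tags per site were lower in 7 of 8 libraries, but 1 library held only 4 sites, and this array was not tested. The longest empty stretch was 7.56 kb on chromosome 4 and 7.38 kb on chromosome 10, shorter than in the other 5 arrays. Merged regions in 2 or more libraries made up 14 of 102 (13.7%) on chromosome 4 and 12 of 77 (15.6%) on chromosome 10, against 11.2% and 9.23% in the flanks. On chromosome 4 the leading region, chr4:190942570-190943818, was found in 5 libraries of the etoposide experiment, and chr4:191040127-191040621 in 4 libraries. On chromosome 10 chr10:135499774-135500621 and chr10:135443367-135443708 were each found in 3.

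CT47 genes encode a further family of cancer/testis antigens, with 14 members on chromosome X in RefSeq. Their array was nearly empty: 15 MACS peaks in the 8 libraries of the etoposide experiment and 2 in the untreated TOP2A library. With etoposide the TOP2A libraries had 0 and 2 peaks and the TOP2B libraries 0 and 0. With the vehicle the TOP2A libraries had 6 and 1 and the TOP2B libraries 4 and 2. Density was below that of the flanks in 6 of 8 libraries. Site density averaged 0.0192 per kb, above that of 0.175% of the 250 kb windows, whose mean was 0.0585 per kb. The CT47 flanks were also below that mean, at 0.0296 sites per kb. None of the 17 merged regions was found in 2 libraries, but in the flanks too only 21 of 463 (4.54%) were found in 2 or more.

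Of the 22 CT47 sites, 12 (54.5%) came from 1 library, TOP2A vehicle replicate 1, and these formed a regular ladder. They ran from chrX:120065331-120065411 to chrX:120118811-120118891, and each lay 4860 bp from the one before, except for a single distance of 4880 bp. Each had 34 to 70 tags and a fold of 1.48 to 5.65, low against the median of 187 tags and a fold of 87.2 in the flanks of that library, and 6 of the 12 overlapped a MACS peak. No other library showed this ladder. TOP2A vehicle replicate 2 had no site in the array, although its list of sites was longer (246619 against 217628 in replicate 1).

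The GAGE array was sparse and uneven. It held 66 MACS peaks, of which 38 (57.6%) came from TOP2A vehicle replicate 1. With etoposide the TOP2A libraries had 0 and 2 peaks and the TOP2B libraries 2 and 7. With the vehicle the TOP2A libraries had 38 and 6 and the TOP2B libraries 2 and 9. That library had 0.152 peaks per kb in the array, against 0.038 in the flanks, and TOP2B etoposide replicate 2 was also higher in the array (0.028, against 0.023), while the other 6 of 8 libraries were lower. None of the 66 merged regions was found in 2 libraries, against 17 of 481 (3.53%) in the flanks.

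A regular spacing was seen in 3 libraries. In TOP2B etoposide replicate 2 all 6 sites of the array lay in a row, each 9520 to 9560 bp from the last, from chrX:49311471-49311571 to chrX:49359211-49359311 (positions as the lists give them). They had 12 to 20 tags each and a fold of 52.6 to 87.7. In TOP2A vehicle replicate 1, 21 of 170 pairs of sites lay 9540 bp apart, within 150 bp. TOP2A etoposide replicate 1 had 2 such pairs among its 3, and the other 5 libraries of the etoposide experiment had none. On GRCh38.p14, 9 of the 11 distances between neighbouring GAGE promoters were 9517 to 9582 bp. The other two were 18391 bp, between GAGE10 and GAGE12J, and 191013 bp, between GAGE12B and GAGE12C. The 2 rows of sites described here and in the CT47 array were picked after their values were seen and are given as examples.

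**Figure D4:**
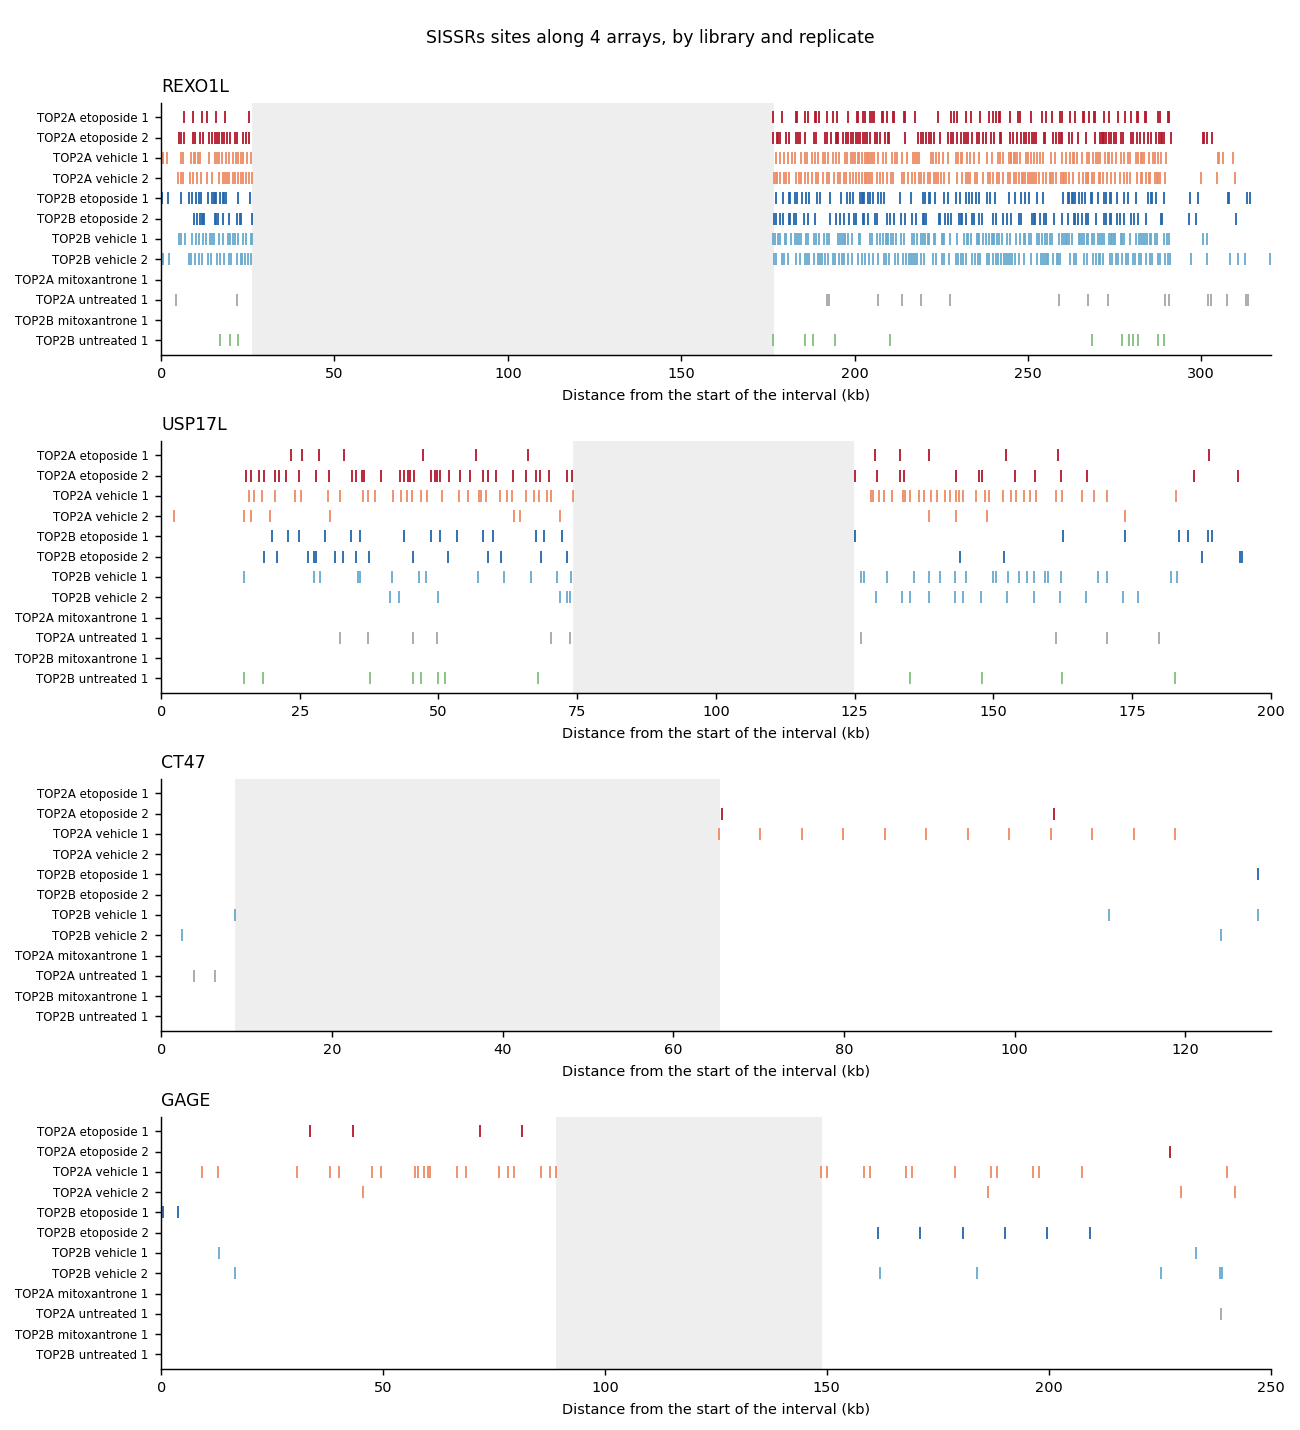
SISSRs sites along the REXO1L, USP17L, CT47 and GAGE intervals, as distance from the start of the interval in kb, with 1 row per library and replicate. Grey marks the longest stretch empty in all 12 libraries (150, 50.4, 56.6 and 59.6 kb), and TOP2A vehicle replicate 1 shows 12 evenly spaced sites in CT47.

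To describe spacing in all arrays alike, distances of 1 to 30 kb between sites of 1 library were counted, and the commonest was taken from the replicate 1 libraries of the etoposide experiment and then read in the replicate 2 libraries. If distances were spread evenly, 1.04% of pairs would lie within 150 bp of any one distance. On chromosome X the distances were 9540 bp in GAGE (5 of 16 pairs in replicate 2, 31.2%, against 0.583% in the flanks) and 4860 bp in CT47, where replicate 2 had no pairs. All 5 GAGE pairs came from the row of TOP2B sites above. In USP17L the distance was 4740 bp, held by 27 of 703 pairs (3.84%), against 1.77% in the flanks. By replicate 2 library these were 14 of 539 pairs (TOP2A etoposide), 2 of 17 (TOP2A vehicle), 3 of 75 (TOP2B etoposide) and 8 of 72 (TOP2B vehicle). In the DEFB cluster it was 7655 bp (2.30% of pairs, against 0.625%). The D4Z4 arrays gave 3305 bp on chromosome 10 (3.74%, against 0.434%) and 3260 bp on chromosome 4 (2.87%, against 1.30%). On chromosome 10 replicate 2 had 7 such pairs, and on chromosome 4 also 7. In REXO1L the commonest distance, 3130 bp, was little more frequent in the array (1.41%) than in the flanks (1.15%). Longer distances also stood out there: over the 8 libraries, bins of 250 bp centred on 12125, 24375 and 27375 bp held 245, 196 and 198 array pairs. The bins beside the first held 161 and 195 pairs, those beside the second 128 and 154, and those beside the last 144 and 144. These bins were picked after their values were seen. Pairs share sites and libraries, so these shares are descriptions and were not tested.

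**Figure D5:**
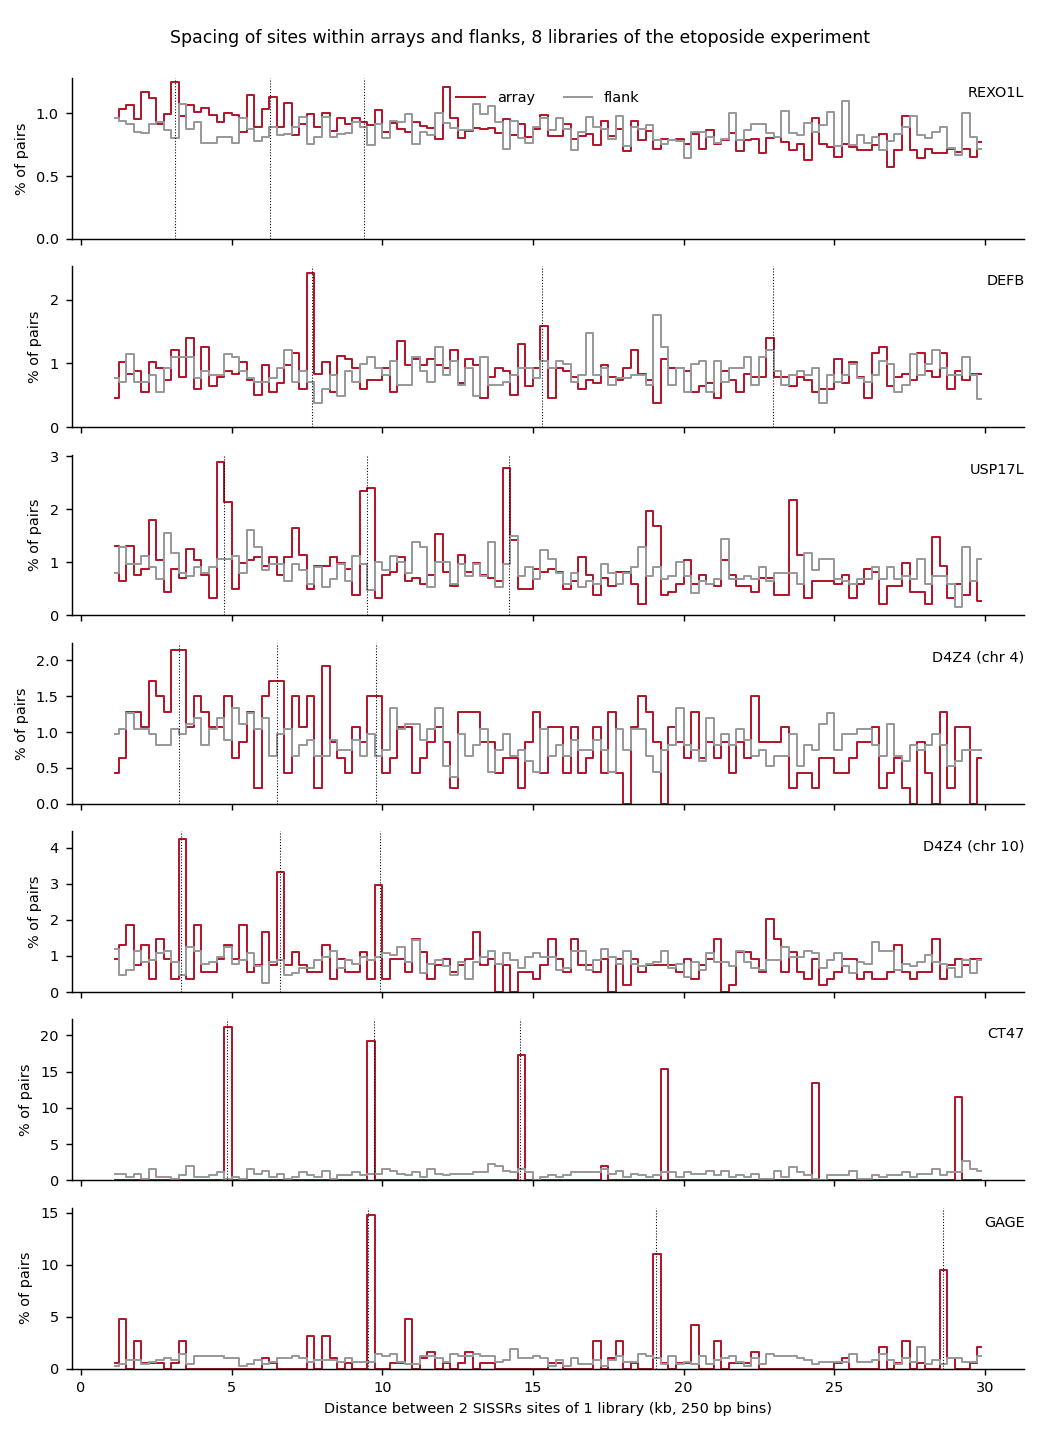
Share of site pairs by distance (kb, in bins of 250 bp) within the arrays (red) and flanks (grey), over the 8 libraries of the etoposide experiment, each array with its own vertical scale. Dotted lines mark 1, 2 and 3 times the commonest distance in the replicate 1 libraries. Red peaks stand there most clearly in CT47, GAGE, USP17L and D4Z4 of chromosome 10. Away from its lines, REXO1L has bins above their neighbours, among them those at 12125, 24375 and 27375 bp. They hold 1.21%, 0.966% and 0.976% of array pairs, against 0.923%, 0.854% and 0.893% in the flanks.

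Whether etoposide changed the share of each list that fell in an array was asked with limma on peaks per 10000 peaks of the list, over 250 kb windows and the arrays together. For TOP2A no row of 11370 passed an adjusted p of 0.05 (0%), and 363 were under 0.05 before adjustment. USP17L had 0.821 and 1.38 peaks per 10000 with etoposide (replicates 1 and 2), against 0.368 and 0.241 with the vehicle. Its log2 difference, 1.87 (SE 0.59, n = 2 each), had an unadjusted p of 0.00681 and an adjusted p of 0.926 (limma). This difference was 0.92 (SE 0.62) with SISSRs sites in place of MACS peaks, and 1.04 (SE 0.81) at a MACS score of at least 100. REXO1L had 5.20 and 1.44 peaks per 10000 with etoposide, against 2.21 and 0.642 with the vehicle, and the groups overlapped (log2 difference 1.20, SE 0.65, limma adjusted p = 0.926). GAGE had 0 and 0.103 with etoposide, against 1.75 and 0.241 with the vehicle (log2 difference -2.36, SE 0.97, limma adjusted p = 0.926). DEFB had 4.93 and 6.92 with etoposide, against 6.40 and 5.18 with the vehicle (0.04, SE 0.20, limma adjusted p = 0.981). The D4Z4 arrays differed by -0.15 (chromosome 4) and -0.36 (chromosome 10), and CT47 held too few peaks to be tested. Without TOP2A vehicle replicate 1, which held most of its peaks, GAGE had too few peaks to be tested. The REXO1L difference was 0.27 without the first TOP2A etoposide library and 0.33 without the second vehicle library. The number of calls depended on the second etoposide library: without it 2439 of 11332 rows passed (21.5%), among them REXO1L (log2 2.14, limma adjusted p = 4.86e-11), USP17L (1.59, 0.0174) and GAGE (-2.30, 0.000684), with the lone etoposide library assumed to vary like the vehicle libraries.

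For TOP2B no row of 11216 passed (0%), with 527 under 0.05 before adjustment (limma). REXO1L had 1.14 and 5.21 peaks per 10000 with etoposide, against 5.25 and 0.437 with the vehicle, so high and low libraries occurred in both groups (log2 difference 0.70, SE 1.93, limma adjusted p = 0.993). USP17L had 0.426 and 1.54 with etoposide, against 2.15 and 0.269 with the vehicle (0.17, SE 0.86). GAGE differed by 0.95, DEFB by -0.29, and the D4Z4 arrays by -0.84 (chromosome 4) and -0.66 (chromosome 10), each with an adjusted p of 0.940 or more (limma). Without TOP2B vehicle replicate 1, 3 of 11260 rows passed (0.0266%), REXO1L among them (log2 2.48, SE 0.49, limma adjusted p = 0.00271). Without TOP2B vehicle replicate 2 the REXO1L difference was -1.08 and that of USP17L -1.31, so both depended on which vehicle library was kept. Without TOP2B etoposide replicate 2 they were -0.36 and -0.67, and 277 of 11282 rows passed (2.46%).

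TOP2A and TOP2B were compared over the 8 libraries with treatment in the fit. No row of 11382 passed (0%), with 420 under 0.05 before adjustment (limma). The log2 differences, TOP2A minus TOP2B, were 0.47 (SE 0.35) in the D4Z4 array of chromosome 4, 0.17 (SE 0.23) in DEFB, -0.10 (SE 1.00) in REXO1L, -0.21 (SE 0.44) in the D4Z4 array of chromosome 10, -0.28 (SE 0.71) in GAGE and -0.46 (SE 0.57) in USP17L, each with a limma adjusted p of 0.950 or more.

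In the mitoxantrone experiment the arrays held few peaks. With mitoxantrone the TOP2A library had 4 peaks in all 7 arrays (exact 95% Poisson interval 1.09 to 10.2), 3 in DEFB and 1 in the D4Z4 array of chromosome 10. Without drug it had 40 (interval 28.6 to 54.5), 25 of them in DEFB. These made up 0.0526% of the mitoxantrone list and 0.0364% of the untreated list. For TOP2B the mitoxantrone library had 0 peaks in the arrays (interval 0 to 3.69), and the untreated library had 6 (interval 2.2 to 13.1), or 0.0646% of its list. A limit of 3 counts, which is one-sided and so below the upper end of that interval, allows up to 0.427% of the 702 peaks of the mitoxantrone list. The intervals cover counting error only, and with 1 library per group there is no replicate check. In the etoposide experiment the arrays held 0.0610% to 0.185% of each list.

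In REXO1L, USP17L and the D4Z4 array of chromosome 4, array sites of both untreated libraries of the mitoxantrone experiment had more tags than flank sites, with no test of these 2 libraries. REXO1L sites there had a median of 58 (TOP2A) and 61 (TOP2B) tags, against 32 and 30 in the flanks. USP17L sites had 38.5 and 30, against 30.5 and 28.5 in the flanks. In the D4Z4 array of chromosome 4 they had 34.5 and 33, against 33 and 30. The numbers of array sites behind these medians were 18 and 15 in REXO1L, 10 and 12 in USP17L and 16 and 6 in the D4Z4 array. The medians were also higher in DEFB (32 and 33, against 31 and 29.5) and in the D4Z4 array of chromosome 10 (36.5 and 32, against 29 and 28), but not in CT47 and GAGE. In the untreated TOP2A library the 2 CT47 sites had a median of 29 tags, against 30 in the flanks, and the single GAGE site had 28, equal to the median of the flanks. The untreated TOP2B library had no site in either. The deposited fold per site was lower in the REXO1L array than in its flanks here too, at 2.22 and 2.28, against 4.46 and 3.81. It was also lower in USP17L (2.67 and 2.38, against 5.23 and 3.62) and in the D4Z4 array of chromosome 4 (2.59 and 2.27, against 3.67 and 2.69).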

How the data were processed

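The authors deposited, for each library, a MACS peak list with a score per peak and a SISSRs site list, whose columns, without a header, were read from their values as the tag count of a site, its fold (ratio) over background and its p-value. Bowtie2 2.2.5, MACS 1.4, bedtools 2.26.0 and hg19 are named in the submitters' processing notes. How either caller was set, and whether input was used, is not given in the sources used here. That p-value was not used.

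Regions were assigned by midpoint. Densities had 0.5 peaks added. Tag medians were tested in arrays with at least 5 sites on both sides in every library. Ratios were tested by exact sign flips over 8 libraries, adjusted by Benjamini-Hochberg over the arrays tested. limma 3.58.1 in R 4.3.3, with its trend and robust options, was fitted to all rows with a mean of at least 5 peaks, with a pseudocount of 0.5. Merged regions were named by number of libraries, then tags, up to 2 per array. Python 3.11.15, numpy 2.4.6, pandas 2.3.3 and scipy 1.17.1 were used. Both tests were also run on simulated data, with results not given here. The data simulated for the sign flips held counting error only, with no further spread between libraries. Alternatives were the other caller, a MACS score of at least 100, flanks of 500 kb, windows of 500 kb, a pseudocount of 2, no filter, bases covered, occupied 10 kb windows, all 12 libraries, 1 fit of 8 libraries, each library left out and a replicate block. The arrays, tests and lists were chosen with earlier results of these data known. Protein sequences planned for the gene families were not used here.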

Additional observations from a re-analysis of the deposited data

Results flagged for a closer look

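In the D4Z4 array of chromosome 4, TOP2B etoposide replicate 1 stood apart from the other 7 libraries of the etoposide experiment in MACS peak density (log2 array over flank -0.77), and TOP2A vehicle replicate 1 stood apart in tags per site (log2 -1.23). Chance flags about 1 in 20 groups, and 18 were examined.

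In 3 arrays, REXO1L, USP17L and D4Z4 of chromosome 4, the ratio of tags per site was below 0 on the log2 scale in all 8 libraries of the etoposide experiment and above 0 in both untreated libraries of the mitoxantrone experiment. The log2 ratio of array over flank in REXO1L averaged 0.94 in the 2 untreated libraries of the mitoxantrone experiment and -0.83 in the 8 libraries of the etoposide experiment. In USP17L it averaged 0.21 and -1.35, and in the D4Z4 array of chromosome 4 it averaged 0.10 and -0.73, in the same order. These differences were not tested, and the experiments also differ in peak width and list length. The deposited fold per site did not change direction: in both untreated libraries it was lower in each of these 3 arrays than beside it.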

How the results depend on the processing

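Of 411 values recomputed under alternatives, 343 kept their direction and their side of the threshold, or for counts stayed within 1.5 times. Values that passed under neither setting are among the 343. Another 46 changed sign. Tags per site stayed lower and past the threshold in 45 of 46 recomputed values, each for 1 of the 4 arrays under 1 alternative. The exception was the deposited fold in the D4Z4 array of chromosome 4 (log2 -0.52). Most of the 46 values left out 1 library. These had to pass, because in all 4 arrays every library was already lower, so they are no check on the result. With only sites that overlap a MACS peak, chosen after seeing the data, the log2 ratio was -0.49 in REXO1L (lower in 6 of 8 libraries, exact p = 0.0469, n = 8) and -0.80 in DEFB, and USP17L and D4Z4 held too few such sites. The planned use of all 12 libraries gave no tag values, because the mitoxantrone libraries had too few sites.

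For peak density the cause of each change was not tested. At a MACS score of at least 100 the log2 ratios were -1.47 in REXO1L, 0.76 in D4Z4 of chromosome 4 and -1.26 in CT47, each then past the threshold (adjusted exact p = 0.0365, n = 8), and -0.022 in DEFB. With SISSRs sites they were 1.54 in REXO1L, 0.44 in DEFB, 1.23 in USP17L, 0.99 in D4Z4 of chromosome 4 and 0.62 on chromosome 10. In bases covered they were 0.79 in REXO1L and 0.37 in USP17L, neither past the threshold. Counting only occupied 10 kb windows as length gave 0.40 and 0.18 for MACS peaks and, added after seeing the data, 2.35, 0.48, 1.48, 0.84 and 0.62 for sites in the order above. Such windows are kept because they hold peaks or sites, so by construction the ratio rises where more of the array than of the flanks is empty, and these values are no check on density. Leaving out each library gave -0.32 to 0.13 in USP17L.

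For TOP2A with etoposide, leaving out each library gave 0 to 2439 calls, and -0.33 to 0.036 in D4Z4 of chromosome 4, -0.82 to 0.095 on chromosome 10, -0.18 to 0.27 in DEFB, 0.27 to 2.14 in REXO1L, 1.57 to 2.16 in USP17L and -3.74 to -2.30 in GAGE, with no GAGE value without TOP2A vehicle replicate 1. With a pseudocount of 2, which moved the median of all rows to 0.29 for TOP2A and 0.15 for TOP2B, D4Z4 was at 0.079 on chromosome 4 and 0.080 on chromosome 10. At a score of at least 100 DEFB was at -0.33 and D4Z4 of chromosome 4 at 0.088, and SISSRs sites put the last at 0.095. For TOP2B leaving out each library gave 0 to 277 calls, -0.85 to 0.27 in DEFB, -1.38 to 0.064 in D4Z4 of chromosome 10, -1.08 to 2.48 in REXO1L and -1.31 to 1.64 in USP17L. A pseudocount of 2 gave 1 call, and SISSRs sites put DEFB at 0.012. For TOP2A minus TOP2B leaving out each library gave 0 calls, -0.081 to 0.39 in DEFB, -0.53 to 0.04996 in D4Z4 of chromosome 10, -0.72 to 0.26 in GAGE (again with no value without TOP2A vehicle replicate 1), -0.76 to 0.66 in REXO1L and -0.97 to 0.30 in USP17L. GAGE was at 0.022 with a pseudocount of 2 and at 0.32 with SISSRs sites, which put USP17L at 0.036.

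With the replicate number as a block, limma made 3 calls for TOP2A and 1 for TOP2B with etoposide, and 0 for TOP2A against TOP2B. Same-numbered libraries did not deviate together (correlations of -0.0449 to 0.0422 over 11382 rows), and the labels do not say whether a number marks a shared culture or day, which these correlations cannot show.

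Read depth is unknown, CT47 and GAGE hold few peaks, and most GAGE peaks come from 1 library.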
